A study of Mus musculus with 12 samples.

Results

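The H2 complex is the mouse major histocompatibility complex, and its genes were chosen here by their symbols alone: every protein-coding gene of the count table whose symbol starts with H2-. Of the 55401 genes in the table, 45 carried such a symbol and 34 of these were annotated as protein-coding. The 34 were 2 classical class I genes (H2-K1 and H2-D1), 22 non-classical class I genes (6 H2-Q, 4 H2-T and 12 H2-M genes), 9 class II genes and H2-Ke6, which lies in the complex but encodes no MHC chain. All were on chromosome 17 in the GRCm38 annotation, from H2-K1 (chr17:33996017-34000347, minus strand) to H2-M2 (chr17:37480851-37483552, minus strand). The remaining 11 H2- symbols were pseudogenes or polymorphic pseudogenes and were not counted as members.

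RNA-seq was performed on whole livers of female mice aged 15 weeks, 6 iTgMir483 animals and 6 littermate Controls, to ask how the liver transcriptome differs when the microRNA Mir483 is overexpressed after birth. iTgMir483 mice carry 1 additional copy of Mir483 at the Rosa26 locus in a Tet-off design, made expressible by a CMV-Cre cross that acts in all tissues, so the transgene is not restricted to liver. Dams of both groups drank doxycycline through pregnancy, which silences the transgene, and it was then withdrawn. The labels call the other group only control, and do not say whether Control animals carried Cre or the uncrossed transgene. The transgene was targeted in E14Tg2A.4 and JM8.F6 embryonic stem cells, which come from different mouse strains, and the sources used here do not say which cells founded the animals sequenced. The study's mice were kept on a C57BL/6J background. H2 alleles differ among inbred strains, and the H2 alleles of these animals were not tested.

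Library totals ran from 12244123 to 30431286 counts in Control and from 12415140 to 15846175 counts in iTgMir483. Levels below are CPM, the counts scaled to a common library total after TMM normalization. Mir483 itself had 0 counts in all 6 Control libraries and 23.3 to 54.3 CPM in the 6 iTgMir483 libraries, as the labels require. The hepatocyte markers Alb, Apoa1 and others of that list were abundant in every library, with summed levels of 112300 to 158300 CPM in Control and 55430 to 124800 CPM in iTgMir483. 1 library stood apart, iTgMir483 replicate 4, which had the highest level of several class I genes and of macrophage and leukocyte markers. Its summed hepatocyte markers were also the lowest, at 55430 CPM, with iTgMir483 replicate 1 next at 58740 CPM. The H2 values and list counts that replicate 4 moved most are given with and without it.

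Class I molecules present peptides made inside the cell to CD8 T cells and are carried by nearly all nucleated cells, as a heavy chain paired with beta-2 microglobulin. Classical heavy chains are highly polymorphic and widely expressed, whereas the non-classical Q, T and M chains are less polymorphic, more restricted in tissue and often have specialised ligands or receptors. Class II molecules present peptides taken up from outside to CD4 T cells, and are made mostly by dendritic cells, B cells and macrophages. In liver, hepatocytes carry class I, while class II is largely a product of the non-parenchymal cells.

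The promoters of these genes are shown because class I and class II genes are known to be switched by different sets of short elements. Windows of 300 bases, 250 before to 50 after each annotated start, were taken from RefSeq (GRCm38.p6) for 31 of the 34 members. H2-Q1, H2-T24 and H2-Ab1 had no entry. Elements searched on both strands are in capitals: the NF-kB core GGGATTCC, the interferon regulatory factor element GAANNGAAA and the Y box CTGATTGG, which NF-Y binds, with the X box CCTAGCAAC and the CRE-like TGACGTC of class II genes. H2-K1 and H2-D1 are the classical genes, H2-Q10 and H2-T22 are non-classical genes whose values are described below, and H2-Aa stands for class II.
H2-K1 (chr17:34000298-34000597, - strand): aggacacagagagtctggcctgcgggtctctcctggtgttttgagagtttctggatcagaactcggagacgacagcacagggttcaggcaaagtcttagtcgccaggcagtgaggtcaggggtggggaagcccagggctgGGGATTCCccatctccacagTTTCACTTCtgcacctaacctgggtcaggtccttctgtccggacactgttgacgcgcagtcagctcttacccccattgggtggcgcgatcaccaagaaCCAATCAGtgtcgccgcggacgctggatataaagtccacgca
H2-D1 (chr17:35262844-35263143, + strand): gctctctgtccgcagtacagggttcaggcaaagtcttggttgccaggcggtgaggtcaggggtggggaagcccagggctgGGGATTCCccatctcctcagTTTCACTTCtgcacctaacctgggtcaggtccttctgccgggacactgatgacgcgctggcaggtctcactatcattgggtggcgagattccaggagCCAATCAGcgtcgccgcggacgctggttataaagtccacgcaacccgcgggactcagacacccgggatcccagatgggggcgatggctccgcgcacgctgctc
H2-Q10 (chr17:35469839-35470138, + strand): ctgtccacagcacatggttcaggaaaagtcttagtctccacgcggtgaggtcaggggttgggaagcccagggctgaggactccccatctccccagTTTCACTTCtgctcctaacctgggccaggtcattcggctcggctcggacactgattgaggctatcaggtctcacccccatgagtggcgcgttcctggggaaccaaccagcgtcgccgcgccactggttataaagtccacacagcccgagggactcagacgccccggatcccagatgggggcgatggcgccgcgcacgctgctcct
H2-T22 (chr17:36042693-36042992, - strand): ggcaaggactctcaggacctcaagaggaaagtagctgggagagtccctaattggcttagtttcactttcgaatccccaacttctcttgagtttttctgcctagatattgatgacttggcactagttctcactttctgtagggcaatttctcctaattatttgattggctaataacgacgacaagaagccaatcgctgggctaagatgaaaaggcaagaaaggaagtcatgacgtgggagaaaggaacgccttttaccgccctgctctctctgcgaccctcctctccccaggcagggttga
H2-Aa (chr17:34287774-34288073, - strand): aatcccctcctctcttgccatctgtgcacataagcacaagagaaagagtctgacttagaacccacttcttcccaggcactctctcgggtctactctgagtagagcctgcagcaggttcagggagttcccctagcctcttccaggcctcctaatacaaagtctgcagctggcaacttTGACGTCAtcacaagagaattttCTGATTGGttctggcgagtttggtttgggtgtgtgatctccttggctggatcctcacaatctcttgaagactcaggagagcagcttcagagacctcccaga

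All 3 classical windows (H2-K1 has 2 starts) held the NF-kB core, the IRF element and the Y box. In H2-D1 these began at -170, -150 and -53 relative to the start. The same 3 letter strings were found in 1.06%, 7.52% and 4.1% of all 32851 promoter windows in the table. Of 21 non-classical windows, 2 held the NF-kB core (H2-Q6 and H2-Q7), 6 the IRF element and 12 the Y box. Of 9 class II windows, 0 held the NF-kB core or the IRF element, 4 held the Y box and 1 each held the X box and the CRE-like element. The CRE-like letters in H2-Aa read on both strands and overlap each other. Only exact strings were counted, so a window without a string can still hold a variant of the element. H2-Eb1, counted as without the X box, held actagcaac, which differs from the string at its first base.

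H2-Q10 kept the IRF element, at -155, but differed from H2-D1 at the other 2 sites. Counting from 1 at the first base of GGGATTCC, the 8 bases at the matching place in H2-Q10 carried G1A and T5C. Its best match to CCAATCAG, the Y box as read on this strand, carried T5C. H2-Q4 also kept the IRF element and differed from the searched strings by C7T at the NF-kB core and G8T at the Y box. Its window reads ggggatttccc at the first of these places, and whether these letters serve as an NF-kB site was not tested. The H2-T22 window held none of the 5 exact strings. It did hold tttcactttc, 1 base longer than the TTTCACTTC of H2-D1, and ccaatcgc, against CCAATCAG in H2-D1. Absence of a string is therefore not absence of the element. A match or its absence describes these exact letters in these windows and says nothing about binding in these livers.

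Of the 34 members, 17 had enough counts to be tested and 17 did not. 10 of the untested members had 0 counts in all 12 libraries, namely H2-T3, H2-M1, H2-M9, H2-M11 and H2-M10.1 to H2-M10.6. A count of 0 allows up to 0.103 to 0.274 CPM per library, taken as 3 counts. H2-M5 and H2-M2 had 3 and 16 counts in total, H2-Eb2 13, H2-Ke6 22, H2-Oa 69, H2-DMb2 115 and H2-Q2 128. The detected H2-M family was therefore H2-M3 alone among the tested genes.

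Per kilobase of annotated exons, levels in Control liver fell into a small abundant group and a long tail. H2-K1 was at 435.3 ± 30.4 CPM per kb, H2-Q10 at 353.7 ± 33.2 and H2-D1 at 244.1 ± 16.6 (SD, n = 6 for each). Their beta-2 microglobulin partner B2m was at 1313 CPM per kb. H2-T23, which encodes the Qa-1 molecule read by NKG2A receptors, followed at 71.9 ± 11.4 CPM per kb. H2-Q6, H2-Q4 and H2-T22 lay at 16.6 to 17.1 CPM per kb, and their library ranges overlapped. The class II chains H2-Eb1, H2-Ab1 and H2-Aa, with H2-Q7 among them, lay at 7.70 to 11.1 CPM per kb, also with overlapping ranges. H2-M3, H2-T24, H2-Q1, H2-DMb1 and H2-DMa were at 1.01 to 2.33 CPM per kb, and H2-Ob at 0.242.

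The order at the top depended on the length used. Annotated exons of H2-K1 and H2-Q10 add up to 2938 and 4348 bases, against longest transcripts of 1619 and 1991 bases. Per kilobase of longest transcript, H2-K1 was at 790.0 and H2-Q10 at 772.5 CPM per kb in Control, a smaller gap than per kilobase of exons. In iTgMir483 livers H2-Q10 was above H2-K1 in mean by either length, at 525.3 against 506.8 CPM per kb of exons and 1147 against 919.5 per kb of transcript.

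**Figure D1:**
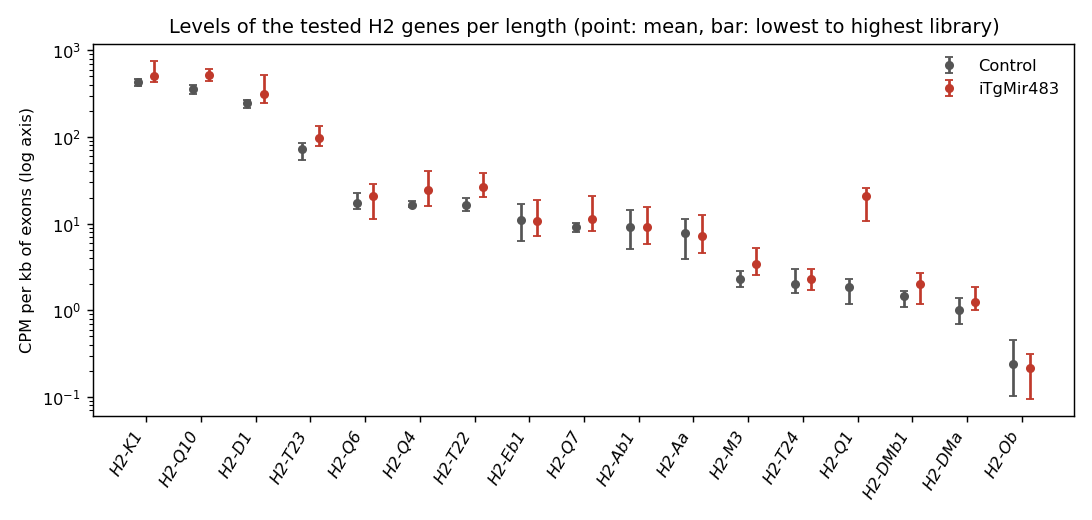
CPM per kb of annotated exons (log axis) for the 17 tested H2 genes, ordered by their Control mean, with points for group means and bars from the lowest to the highest of 6 libraries. H2-K1, H2-Q10, H2-D1 and H2-T23 sit above the other genes, and H2-Q1 is the gene whose groups lie farthest apart, at 1.84 in Control and 20.6 in iTgMir483.

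Between the groups, 2 of the 17 tested members were called, both higher in iTgMir483 (H2-Q1 and H2-T22). 0 were called lower, 0 had an unadjusted p under 0.05 with a lower level, and DESeq2 also called 0 lower. A gene was called where edgeR's quasi-likelihood test gave a Benjamini-Hochberg adjusted p under 0.05 and the fold change was over 1.5. That was 11.8% of the tested members, beside 11.1% of the 13205 genes tested, of which 8.41% were higher and 2.73% lower, so the share called among H2 genes was near the background. The median log2 fold change was 0.30 over the 17 members and 0.01 over all genes tested. Groups did not overlap for 3 members (H2-Q1, H2-Q10 and H2-T22), or 17.6%, beside 7.92% of all genes. All 11 tested class I genes had a positive log2 fold change, with a median of 0.43, against 3 of the 6 tested class II genes, with a median of -0.01.

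Without iTgMir483 replicate 4 the median over the 17 members was 0.16 and over all genes 0.01. All 11 class I changes stayed positive, at 0.04 to 3.42, and 1 member, H2-Q1, was still called. The size of the class I shift therefore depended on this library. The signs of these 11 genes did not change, but H2-Q7 at 0.04 and H2-K1 at 0.07 were then near 0. The 11 genes were measured in the same livers and some share reads, so their signs are not independent. Leaving out other libraries raised the count to as many as 5, with H2-Q10, H2-Q4 or H2-M3 past the fold threshold or H2-Q2 past the low-count filter. Without Control replicate 3 the called members were H2-Q1, H2-T22, H2-Q10, H2-M3 and H2-Q2, and without iTgMir483 replicate 1 they were H2-Q1, H2-T22, H2-Q4, H2-M3 and H2-Q2. They numbered 4 without Control replicate 1, Control replicate 2 or iTgMir483 replicate 6.

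**Figure D2:**
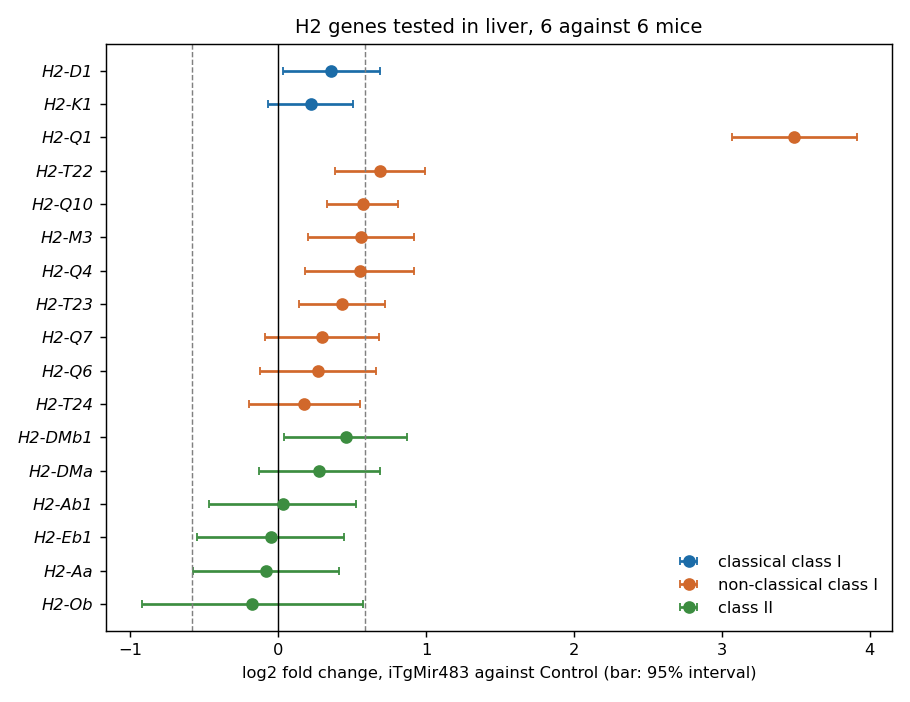
Log2 fold change of iTgMir483 against Control for the 17 tested H2 genes by class, with bars for the unadjusted 95% interval and dashed lines at a fold change of 1.5. H2-Q1 stands alone at 3.49, the other class I genes lie between 0.18 and 0.69, and class II genes lie between -0.18 and 0.46.

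H2-Q1 showed the largest difference of the complex. It is a non-classical class I gene next to H2-Q2 in the Q region (chr17:35320405-35325099, plus strand) whose function is little known. Its level in Control ran from 3.42 through a median of 5.67 to 6.58 CPM, and in iTgMir483 from 30.9 through 61.8 to 73.9 CPM. The lowest iTgMir483 library was thus well above the highest Control library. The mean rose from 5.25 ± 1.19 to 59.0 ± 15.8 CPM (SD, n = 6), an 11.2-fold difference (log2 fold change 3.49, SE 0.215, adjusted p = 4.475e-07, edgeR's quasi-likelihood test). Per kilobase of exons it was at 1.84 CPM in Control, below H2-T24, and at 20.6 CPM in iTgMir483, beside H2-Q6 at 20.7 and H2-Q4 at 24.4.

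H2-Q1 and its neighbour have similar sequences, so reads can be shared. Of the 50-base words in annotated H2-Q1 transcripts, 15.0% also occur in another gene, and 9.05% in H2-Q2. H2-Q2 was itself too low to be tested, at 0.308 ± 0.156 CPM in Control and 1.12 ± 0.556 CPM in iTgMir483, with overlapping groups. Where no low-count filter was applied it was higher by 1.81 on the log2 scale (SE 0.437), with an adjusted p of 0.0114 in edgeR's quasi-likelihood test. With the counts of both genes added, the level was 5.58 ± 1.15 CPM in Control and 59.6 ± 15.7 CPM in iTgMir483 (log2 fold change 3.44, SE 0.209, adjusted p = 3.735e-07, edgeR's quasi-likelihood test). H2-Q1 made up most of this count in both groups. The difference of the pair was therefore bound to be close to that of H2-Q1 alone and says little about shared reads. Across all alternatives tried the log2 fold change of H2-Q1 stayed between 3.40 and 3.65.

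H2-Q10 differed by a smaller ratio at a far higher level. It encodes a soluble class I chain that liver secretes into blood. Control libraries held 1351 to 1731 CPM with a median of 1559, and iTgMir483 libraries 1945 to 2664 CPM with a median of 2268. No iTgMir483 library fell into the Control range. The means were 1538 ± 144.5 and 2284 ± 283 CPM (SD, n = 6), a 1.49-fold difference (log2 fold change 0.57, SE 0.122, adjusted p = 0.00596, edgeR's quasi-likelihood test). This passed the adjusted p but not the fold threshold of 1.5, and so was not called. Without iTgMir483 replicate 4 the log2 fold change was 0.52 with an adjusted p of 0.00964.

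The other members of the Q region were closer together. H2-Q4, H2-Q6 and H2-Q7 encode Qb-1 and Qa-2 family chains, and 26.5% to 36.4% of their 50-base words occur in other genes, so their single values are uncertain. H2-Q4 ran from 40.5 to 47.3 CPM in Control and from 41.5 to 104.9 CPM in iTgMir483 (log2 fold change 0.55, SE 0.188, adjusted p = 0.0541 in edgeR's quasi-likelihood test). H2-Q6 was at 35.7 ± 6.02 and 43.1 ± 14.6 CPM, and H2-Q7 at 39.5 ± 3.25 and 48.5 ± 20.6 CPM, with adjusted p of 0.367 and 0.317. The groups overlapped for all 3. Without iTgMir483 replicate 4, the highest library for H2-Q7, the log2 fold change of H2-Q7 was 0.04 in place of 0.30, that of H2-Q6 was 0.16 in place of 0.27, and that of H2-Q4 was 0.35. With H2-Q10, H2-Q4, H2-Q6, H2-Q7 and Gm11131 added as 1 count, the level was 1666 ± 148.4 CPM in Control and 2421 ± 317.3 CPM in iTgMir483 (log2 fold change 0.56, adjusted p = 0.00783, edgeR's quasi-likelihood test), without overlap. H2-Q10, with means of 1538 and 2284 CPM, made up most of this count. The added count therefore says little about H2-Q4, H2-Q6 and H2-Q7.

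In the T region, H2-T22 was the second called member. It encodes a class I-like chain that some gamma-delta T cells recognise. Control libraries ran from 48.0 through a median of 55.7 to 67.6 CPM, and iTgMir483 libraries from 68.7 through 87.0 to 131.5 CPM. The groups met almost end to end, with 3 iTgMir483 libraries just above the highest Control. The means were 56.7 ± 6.63 and 91.3 ± 25.1 CPM (log2 fold change 0.69, SE 0.156, adjusted p = 0.00830, edgeR's quasi-likelihood test). Without iTgMir483 replicate 4, which was the highest, the log2 fold change was 0.56 with an adjusted p of 0.0128, which is under the fold threshold. H2-T22 also shares 53.5% of its 50-base words with other genes, 31.2% with its neighbour H2-T10. With H2-T10 and A930015D03Rik added, the log2 fold change was 0.67 (adjusted p = 0.00962) and the groups overlapped.

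H2-T23 libraries ran from 158.2 to 244.8 CPM in Control and from 225.9 to 389.7 CPM in iTgMir483 (log2 fold change 0.43, SE 0.148, adjusted p = 0.0547 in edgeR's quasi-likelihood test), with overlap, and the log2 fold change was 0.32 without iTgMir483 replicate 4. H2-T24 was at 4.43 ± 1.20 and 5.01 ± 1.07 CPM (log2 fold change 0.18, adjusted p = 0.555). H2-M3, which presents N-formylated peptides of bacterial and mitochondrial origin, ran from 2.70 to 4.08 CPM in Control and from 3.64 to 7.62 CPM in iTgMir483. Its log2 fold change of 0.56 (SE 0.184) was under the fold threshold, with an adjusted p of 0.0461 in edgeR's quasi-likelihood test, and of 0.0871 without iTgMir483 replicate 4. Only 0.576% of H2-M3 words occur elsewhere, so shared reads bear little on this value.

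The classical genes did not pass the test. H2-K1 ran from 1153 through a median of 1284 to 1390 CPM in Control and from 1265 through 1324 to 2221 CPM in iTgMir483. H2-D1 ran from 552.3 through 638.9 to 680.7 CPM in Control and from 633.2 through 705.0 to 1325 CPM in iTgMir483. In both genes the groups overlapped, and iTgMir483 replicate 4 lay far above the other 5 libraries of its group. The log2 fold changes were 0.22 (95% interval -0.07 to 0.51, adjusted p = 0.323) and 0.36 (95% interval 0.03 to 0.69, adjusted p = 0.146; edgeR's quasi-likelihood test for both). Without that library they were 0.07 and 0.16, with adjusted p of 0.685 and 0.286.

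**Figure D3:**
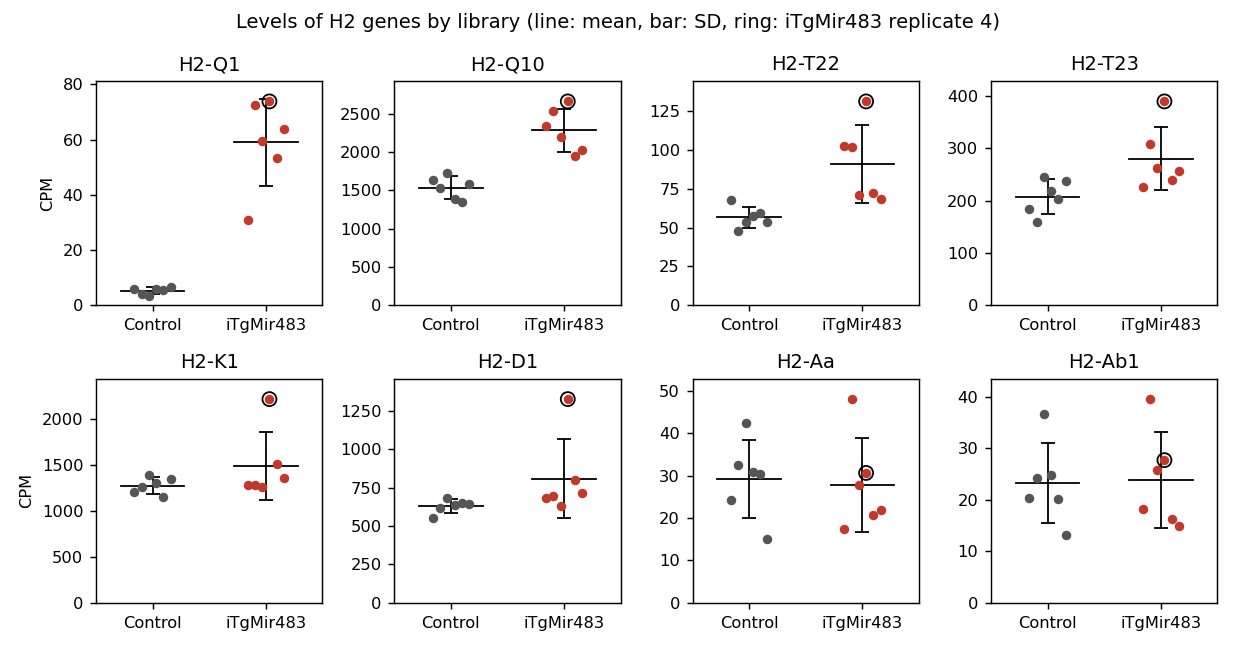
CPM of 8 H2 genes in each of the 12 libraries, with a line for the group mean and a bar for the SD, and a ring around iTgMir483 replicate 4. The groups are apart for H2-Q1, H2-Q10 and H2-T22 and overlap for H2-T23, H2-K1, H2-D1, H2-Aa and H2-Ab1, and the ringed library is the highest for the 6 class I genes but not for the 2 class II genes.

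Summed over their members, the classes differed by unequal amounts. The non-classical sum was 1934 ± 160.3 CPM in Control and 2881 ± 412.4 CPM in iTgMir483, a ratio of 1.49, with ranges of 1736 to 2176 and 2449 to 3527 CPM that did not overlap. H2-Q10 made up most of it. The classical sum had a ratio of 1.20, with ranges of 1761 to 2070 and 1898 to 3545 CPM that overlapped. Without iTgMir483 replicate 4 the ratios were 1.42 and 1.07. The H2-T sum did not overlap either, at 210.0 to 302.2 and 316.5 to 527.4 CPM, a ratio of 1.40, or 1.29 without that library. Sums add genes of unequal length and are descriptions, with no test.

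The makeup of class I counts differed between the groups. H2-K1 held 33.3% ± 1.02 of class I counts in Control (SD, n = 6) and 28.6% ± 2.80 in iTgMir483, and the ranges, 32.0% to 34.9% and 24.7% to 31.9%, did not overlap. H2-Q10 held 39.99% ± 2.15 and 44.6% ± 4.66, with overlapping ranges. H2-Q1 went from 0.138% ± 0.0340 to 1.15% ± 0.282, still a minor part of the whole. These shares are bound to each other, since they add to the same total within a library, and they were not tested.

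Of the 6 tested class II genes, 0 were called by edgeR's quasi-likelihood test or by DESeq2, and 1 (H2-DMb1) had an unadjusted p under 0.05. H2-Aa and H2-Ab1 encode the alpha and beta chain of I-A, and H2-Eb1 the beta chain of I-E. H2-Ab1 ran from 13.3 through a median of 22.3 to 36.7 CPM in Control and from 14.9 through 22.1 to 39.5 CPM in iTgMir483. H2-Aa ran from 15.0 through 30.6 to 42.5 CPM and from 17.5 through 24.8 to 48.0 CPM. H2-Eb1 ran from 12.2 through 21.3 to 33.0 CPM and from 14.0 through 17.7 to 36.1 CPM. The groups covered almost the same range in each gene.

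The log2 fold changes were 0.03 for H2-Ab1 (95% interval -0.46 to 0.52), -0.08 for H2-Aa (-0.57 to 0.41) and -0.05 for H2-Eb1 (-0.55 to 0.45). Adjusted p were 0.948, 0.853 and 0.914 in edgeR's quasi-likelihood test. The intervals, unadjusted and taken from a normal distribution, came close to a 1.5-fold decrease for H2-Aa and H2-Eb1. Intervals from the F-test itself would be wider, so a decrease of that size was not excluded for these genes. Smaller differences could not be told from 0. Sequence sharing bears little on these chains, at 0% of words for H2-Ab1 and H2-Eb1 and 0.514% for H2-Aa.

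H2-DMa and H2-DMb1 encode the DM molecule, which exchanges peptides on class II, and H2-Ob the beta chain of its inhibitor DO. H2-DMa was at 3.48 ± 0.877 and 4.25 ± 1.19 CPM (log2 fold change 0.28, adjusted p = 0.370 in edgeR's quasi-likelihood test). H2-DMb1 was at 2.46 ± 0.407 and 3.39 ± 1.02 CPM (log2 fold change 0.46, adjusted p = 0.146), and 0.46 (adjusted p = 0.148) with H2-DMb2 added, with which it shares sequence. H2-Ob was at 1.30 ± 0.776 and 1.18 ± 0.445 CPM (log2 fold change -0.18, adjusted p = 0.787). The groups overlapped in all 3. The class II sum was 82.1 ± 24.8 CPM in Control and 82.6 ± 31.4 CPM in iTgMir483, a ratio of 1.01.

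The iTgMir483 library with the highest sum was not the same for class I and class II, but the highest Control library was. The highest class II sum among iTgMir483 livers, 138.2 CPM, was in replicate 2, and replicate 4, the highest for class I at 7072 CPM, had 95.5 CPM of class II. Replicate 2 was next after replicate 4 for class I, at 5187 CPM, and replicate 4 was next after replicate 2 for class II. Among Control livers replicate 3 had the highest sum of each, at 4246 CPM of class I and 121.5 CPM of class II.

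Markers of immune cells are given beside these sums, because a bulk liver holds many cell types and more cells of a type cannot be told apart from more RNA per cell. Of all genes tested, 8.41% were called higher, the share to set beside each count of markers called. Most of these lists are short, so 1 call moves their share far. Of 11 Kupffer cell and macrophage markers, 10 (90.9%) were called higher in iTgMir483: Adgre1, Clec4f, Timd4, Marco, Cd5l, C1qa, C1qb, C1qc, Csf1r and Cd68. The list summed to 405.9 to 581.3 CPM in Control and 624.0 to 1718 CPM in iTgMir483. All 3 pan-leukocyte markers (Ptprc, Laptm5 and Coro1a) were called higher, with sums of 27.98 to 35.13 and 46.37 to 100.3 CPM. iTgMir483 replicate 4 had the highest sum of both lists, as it had for class I. The ratio of the macrophage sums was 1.98, or 1.65 without that library, and that of the pan-leukocyte sums 1.93, or 1.69 without it. B cell markers summed to 3.20 to 9.49 and 2.84 to 6.64 CPM, with 0 of 3 tested called by edgeR's test and 1 at an unadjusted p under 0.05, Cd79a (-0.81 on the log2 scale), named after its value was seen. iTgMir483 replicate 2, the highest of its group for class II, was also the highest of its group for B cell markers at 6.64 CPM, while the highest Control was replicate 2 for B cell markers and replicate 3 for class II. Dendritic cell markers summed to 12.2 to 17.7 and 13.9 to 19.3 CPM, with 1 of 3 tested, Itgax, called higher. T cell, NK cell and monocyte markers summed to at most 4.54, 2.44 and 9.45 CPM in any library. Their iTgMir483 to Control ratios were 0.733, 0.7 and 2.31, with overlapping ranges. The monocyte ratio was 1.79 without iTgMir483 replicate 4. Sinusoidal endothelial markers had a ratio of 0.97, and 3 of 5 bile duct markers (Krt7, Epcam and Spp1) were called higher. Of 2 tested monocyte markers, Itgam was called higher and Ccr2 was at -0.59 on the log2 scale (adjusted p = 0.108, edgeR's quasi-likelihood test). No marker of these lists was at 0 in all libraries. The part of these cells in the H2 results was not tested.

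**Figure D4:**
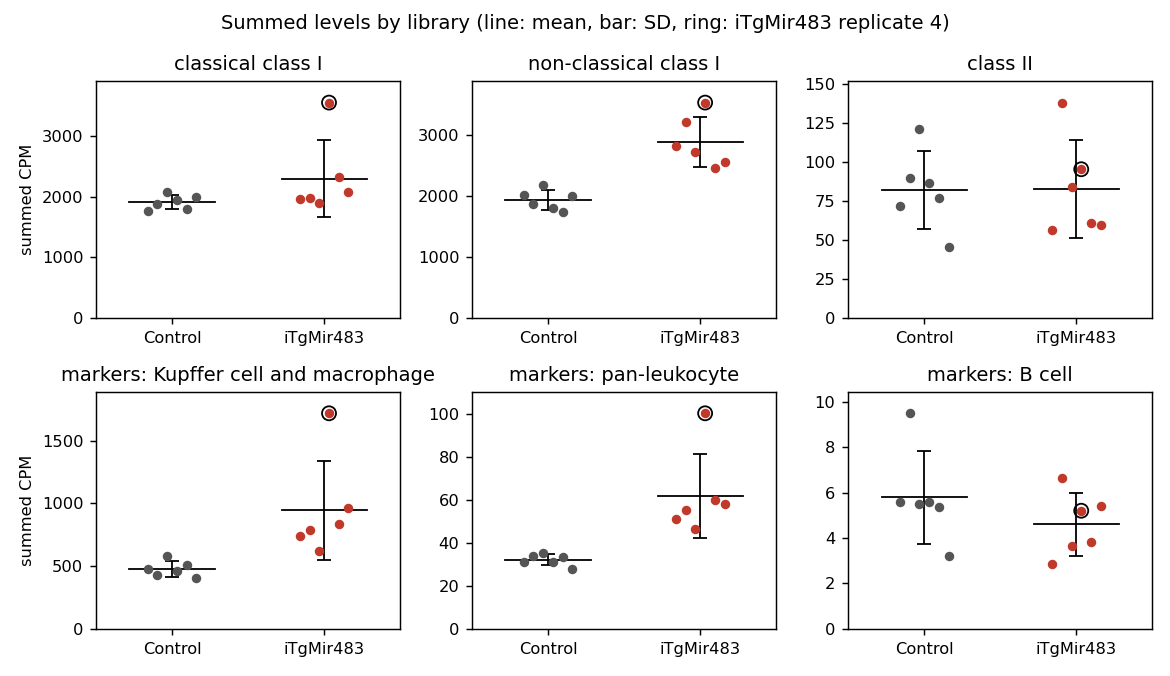
Summed CPM by library for classical class I, non-classical class I and class II genes and for 3 marker lists, with group mean and SD and a ring around iTgMir483 replicate 4. Non-classical class I, macrophage and pan-leukocyte sums are apart between the groups, class II and B cell sums overlap, and the ringed library is the highest for classical class I at 3545 CPM and for macrophage markers at 1718 CPM.

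Genes that load class I were compared as a list. Of 15 tested, 4 (26.7%) were called higher, beside 8.41% of all genes tested, and none lower, with a median log2 fold change of 0.30. The 4 were Tap1 (0.73, adjusted p = 0.00532) and Tap2 (0.61, adjusted p = 0.0168), which carry peptides into the endoplasmic reticulum, and the immunoproteasome subunits Psmb8 (0.85, adjusted p = 0.0146) and Psmb9 (1.31, adjusted p = 0.00173), all by edgeR's quasi-likelihood test. Psmb9 ran from 5.81 to 10.6 CPM in Control and from 11.5 to 28.6 CPM in iTgMir483, without overlap. B2m, the shared light chain, was at 1129 ± 109.3 and 1222 ± 157.4 CPM (log2 fold change 0.11, adjusted p = 0.543). The transactivator of class I genes, Nlrc5, had a log2 fold change of 0.30 (adjusted p = 0.0866). Tapbp, the tapasin that joins the transporter to the class I chain, had 0.39 (adjusted p = 0.140). Not all members leaned the same way, and 11 of the 15 had a positive log2 fold change.

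In the list of class II processing and control, 4 of 11 tested genes (36.4%) were called higher, beside 8.41% of all genes tested, and none lower, with a median log2 fold change of 0.49. They were the lysosomal enzymes Ctss (0.67, adjusted p = 0.0388), Lgmn (0.63, adjusted p = 0.0220) and Ifi30 (0.85, adjusted p = 0.0103), and Rfx5 (0.65, adjusted p = 0.00639), a subunit of the factor that binds the X box. The enzymes also act outside class II presentation, in macrophages among others. The invariant chain Cd74 was at 69.9 ± 20.2 and 71.5 ± 24.3 CPM (log2 fold change 0.03, adjusted p = 0.938), and the class II transactivator Ciita had a log2 fold change of 0.24 (adjusted p = 0.561; edgeR's quasi-likelihood test throughout). Without iTgMir483 replicate 4, 2 of the 11 were called.

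**Figure D5:**
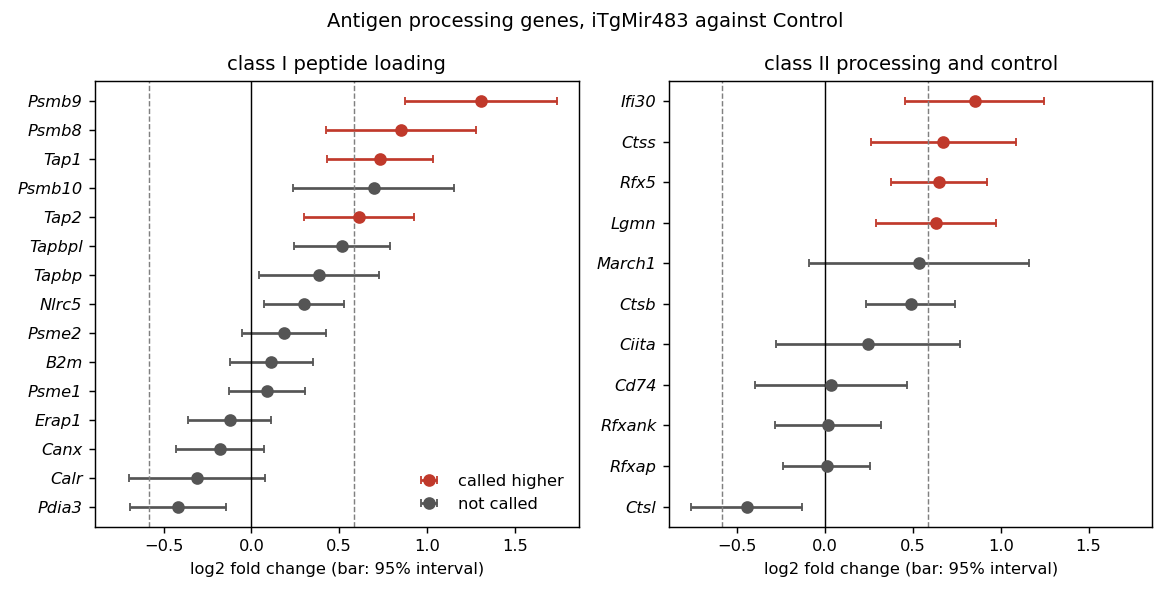
Log2 fold change of the tested genes of class I peptide loading (15) and of class II processing and control (11), with bars for the unadjusted 95% interval and dashed lines at a fold change of 1.5. Psmb9 is the highest of the first list at 1.31 and Ifi30 of the second at 0.85, while B2m and Cd74 lie near 0.

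Lists of genes that act on H2 promoters or bind H2 products were read the same way. Of 8 NF-kB factors, 4 (50%) were called higher, beside 8.41% of all genes tested, with a median of 0.54, among them Relb (1.39, adjusted p = 0.00174) and Nfkb2 (0.78, adjusted p = 0.00915), which form the non-canonical NF-kB dimer. The others were the inhibitors Nfkbie (0.74, adjusted p = 0.00919) and Tnfaip3 (0.93, adjusted p = 0.0346), which are also NF-kB targets. Of 15 tested interferon-gamma response genes, 1 (6.67%) was called higher, under the 8.41% of all genes tested. It was Gbp7 (0.69, adjusted p = 0.0339 in edgeR's quasi-likelihood test), and the list had a median of 0.35. None was called without iTgMir483 replicate 4, nor without iTgMir483 replicate 3 or Control replicate 2, 4, 5 or 6. Irf1, an early target of interferon-gamma, had 0.26 (adjusted p = 0.181). Of 7 tested MHC-like genes outside the complex, 1 (14.3%) was called higher, beside 8.41% of all genes tested. It was Mr1 (0.98, adjusted p = 0.00133 in edgeR's quasi-likelihood test), which presents vitamin B metabolites to MAIT cells. Of 5 tested receptors for MHC molecules, 2 (40%) were called higher, beside the same 8.41%, too few genes to read as a result of the list. They were Cd4 (0.96, adjusted p = 0.0255) and Pirb (1.24, adjusted p = 0.0340), all in edgeR's quasi-likelihood test. Cd4 was low, with 5 to 30 counts per library. Pirb was at 35.7 CPM in iTgMir483 replicate 4, against 4.92 to 20.4 CPM in the other 5 libraries of the group. The number of receptors called was 0 without Control replicate 4 or Control replicate 5, and 1 without iTgMir483 replicate 4, 5 or 6 or Control replicate 1, 2, 3 or 6.

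Seed matches of the overexpressed microRNA were looked up in the 3′ UTRs. The mature miR-483-3p is shown with its seed, bases 2 to 8, in capitals (RefSeq, GRCm38.p6).
miR-483-3p (chr7:142654932-142654952, minus strand): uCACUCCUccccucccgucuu

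The matching site AGGAGTG was present in the 3′ UTR of 4 of 32 members that have one (H2-DMa, H2-Q4, H2-Q6 and H2-M2), or 12.5%, beside 10.6% of 20960 protein-coding genes. The site CCCGTCT of miR-483-5p was in 0 of 32 members and 2.66% of all genes. Neither site was in the 3′ UTR of H2-Q1, H2-T22 or H2-Q10. Of the 4 members with a site, H2-DMa, H2-Q4 and H2-Q6 were tested and none was called lower, and H2-M2 was too low to be tested.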

How the data were processed

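Poly(A) RNA-seq was available from 12 livers, and 1 table of raw gene counts was used, deposited by the authors. Per their methods, the authors aligned reads with STAR to GRCm38 with an Ensembl annotation and took gene-level counts. The strand setting is not given in the sources used here. Ensembl identifiers were matched to symbols and biotypes of GENCODE M21 (GRCm38), which gave a symbol to 55141 of 55401 genes. Promoter and miRNA sequences came from RefSeq tables.

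Genes were filtered with filterByExpr, scaled by TMM and tested across all 13205 remaining genes with edgeR 4.0.16 (quasi-likelihood F-test, no covariates, two-sided, R 4.3.3), with Benjamini-Hochberg adjustment. Calls needed a fold change over 1.5 at an adjusted p below 0.05. Standard errors were taken from the log2 fold change and its F statistic (size over root F). CPM are counts scaled to a common TMM library total. Intervals are 95% and use a normal distribution, which makes them somewhat narrower than the F-test allows. Shared sequence was counted as 50-base words of GENCODE M21 transcripts found in another gene, on either strand. Genes named are all H2 members, the called members of the other lists, and B2m, Tap1, Tap2, Tapbp, Psmb8, Psmb9, Nlrc5, Cd74, Ciita, Ctss and Irf1 whether called or not. Alb, Apoa1, Cd79a and Ccr2 were named in addition, the last 2 after their values were seen. 1 result of that rule is not reported here. The fit was tested on simulated data.

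Counts were also summed by class. The alternatives were size factors of DESeq2 (RLE), other count filters, DESeq2 1.42.0, limma-voom (limma 3.58.1), a replicate block, and each library left out. Adding the counts of genes that share 10% or more of their words was chosen after seeing the data. Members, gene lists and marker lists were chosen with earlier results of these data known. Libraries were separate animals, and no pair of libraries agreed within sampling noise (smallest chi-square per gene 15.6). Read depth limits H2-M, H2-O and other low genes, and counting floors cover counting error only.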

Additional observations from a re-analysis of the deposited data

Results flagged for a closer look

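In 9 of 72 groups of 6 libraries examined, 1 library lay farther from the others than Dixon's 95% critical value allows. Chance alone gives about 1 in 20, or 3.6 of 72. The groups are not independent, because genes of a class vary together.

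8 of the 9 were iTgMir483 replicate 4. It had 2221 CPM of H2-K1, against 1265 to 1518 CPM in the other 5 iTgMir483 libraries (ratio 0.7351), and 1325 CPM of H2-D1, against 633.2 to 797.1 CPM (0.7629). The classical class I sum was 3545 against 1898 to 2315 CPM (0.7468). H2-Q7 was at 88.7 against 35.1 to 52.2 CPM (0.6816) and H2-M3 at 7.62 against 3.64 to 4.83 CPM (0.7024). In the same library the class II processing list summed to 2324 against 1457 to 1636 CPM (0.7935), pan-leukocyte markers to 100.3 against 46.4 to 59.8 CPM (0.7502), and Kupffer cell and macrophage markers to 1718 against 624.0 to 961.3 CPM (0.6917). Whether these values share a source was not tested.

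The remaining one was Control replicate 3, with 47.2 CPM of H2-Q6 against 30.4 to 36.1 CPM in the other Control libraries (ratio 0.6639). H2-Q6 shares 35.0% of its 50-base words with other genes.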

How the results depend on the processing

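Of 339 values of single H2 genes under the alternatives, 328 kept their direction and side of the thresholds or had no call to lose, 1 called value fell under the fold threshold (H2-T22 without iTgMir483 replicate 4) and 10 moved past it (H2-Q10, H2-Q4 and H2-M3, with 1 library or both replicate 1 libraries left out). No called value reversed. Uncalled H2-Ab1, H2-Aa, H2-Eb1 and H2-Ob changed sign in 15 of these values. The number of H2 members higher, all of them class I, was 2 in the analysis reported, 4 without both replicate 1 libraries and 1 to 5 with each library left out in turn. The number was 1 without iTgMir483 replicate 4, 4 without Control replicate 1, Control replicate 2 or iTgMir483 replicate 6, and 5 without Control replicate 3 or iTgMir483 replicate 1. The class I members changed followed the same numbers, and class II members changed stayed at 0 under every alternative.

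Among the other lists, class II processing genes changed numbered 2 to 4 with each library left out. Interferon-gamma response genes changed numbered 2 with DESeq2 and 0 to 2 with each library left out. MHC receptors changed numbered 1 with no low-count filter, 1 with at least 10 counts in every library, 1 with limma-voom and 0 to 3 with each library left out. With no low-count filter H2-Q2 was also called (log2 fold change 1.81, adjusted p = 0.0114, edgeR's quasi-likelihood test).

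Libraries of equal replicate number deviated together in replicate 1 (r = 0.44) but with r under 0.1 in 4 of the 6 pairs, so the numbers were not taken as pairs. With the replicate block, 2 H2 members were called and 1530 genes in all. 2 of 6 Control libraries correlated best with the iTgMir483 library of their own number. Low counts limit the 17 untested members, and read sharing limits H2-T22, H2-Q4, H2-Q6 and H2-Q7.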
